A study of Mus musculus with 15 samples.

Results

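The PGF group was set against the Control group in hypothalamus RNA of CD-1 mice, an outbred stock, taken on postnatal day 15. PGF and Control each hold 3 samples, so the comparison uses 6 of the 15 samples of the series, and the groups were taken from the sample titles. The other 9 samples fall into the groups PGM, HM and HF, with 3 in each, and their values are printed here only to place PGF and Control among them. The title of the series concerns thyroid hormone and effects that reach the F2 generation, and its design text calls the samples biological triplicates. The labels give all 5 groups the same strain, age and tissue, and set them apart by the group code alone. They do not spell out the codes, and neither a treatment nor a sex stands in the labels used here.

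The hypothalamus is a small region at the base of the brain whose neurons release peptides that control the pituitary gland below it, body weight, water balance, stress and reproduction. It lies under the thalamus, borders the striatum and the midbrain, lines the lower part of a fluid-filled ventricle, and is joined to the pituitary by a stalk. Around the age sampled here oligodendrocytes of the mouse forebrain wrap axons in myelin, a process that thyroid hormone is known to advance.

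The deposited values were mean RPKM per transcript and group, that is reads scaled to transcript length and to the mapped reads of a library, averaged by the authors. A mean of 3 samples carries no spread, so no SD, p-value or test could be given, every difference below lacks a replicate check, and a single sample could carry any of them. Read depth is unknown. After the median over the transcripts of each gene name was taken, 17481 of 24831 names (70.4%) averaged 1 RPKM or more across the group means. Their median level was 18.57 RPKM in PGF and 18.93 RPKM in Control. Each difference is log2(PGF + 0.5) minus log2(Control + 0.5), a scale that understates the differences of genes with low values, and a gene was counted when it reached 1.5-fold on that scale.

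Over the 17481 genes the median difference was -0.03 with an SD across genes of 0.29, and 55.6% of genes were below 0. At 1.5-fold, 377 genes (2.16%) were higher and 332 genes (1.90%) were lower in PGF, together 709 genes or 4.06%. The high side reached further. At 2-fold, 120 genes (0.686%) were higher and 28 genes (0.160%) were lower. Of the 377 higher genes, PGF had the highest mean of the 5 groups for 238 and Control had the lowest for 275. Of the 332 lower genes, PGF had the lowest mean for 220 and Control had the highest for 254. Control was the outermost of the 5 groups for most of the genes counted. The genes were selected by their difference between PGF and Control, which by itself favours an outermost place for both groups. Every group comparison with Control shares its samples. The transcripts of a gene seldom disagreed. Among higher genes with several transcripts, 168 of 169 had all of them on the same side of 0, and among lower genes 125 of 127 did. Transcripts of a gene share reads, so they are not separate measurements.

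The label of the tissue could be checked against peptides that the hypothalamus makes. Pmch, the precursor of melanin-concentrating hormone, was at 604 RPKM in PGF and 524 RPKM in Control. Hcrt, the orexin precursor of the lateral hypothalamus, was at 198 RPKM in PGF and 177.5 RPKM in Control. Avp and Oxt, the precursors of vasopressin and oxytocin, were also abundant in both groups, as described below.

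The largest differences belonged to hormones of the anterior pituitary and to Ttr. All 7 pituitary hormone genes listed were measured and all 7 were higher in PGF, with a median difference of 3.67. Prl and Fshb reached the required mean of 1 RPKM only through their level in PGF, so their place in this count depends on it. On RPKM itself PGF stood 6.49 to 62.12 times above Control in these genes. Gh, the growth hormone gene of somatotrophs (chromosome 11, 106300271 to 106301865, minus strand, GRCm38), was at 1363 RPKM in PGF, 59.7 in PGM, 62.1 in HM, 16.5 in HF and 39.8 in Control. The 4 groups other than PGF lay far below it, with HF the lowest and HM the highest among them. Prl, the prolactin gene of lactotrophs (chromosome 13, 27057570 to 27065205), was at 55.9 RPKM in PGF, 1.75 in PGM, 1.21 in HM and 0.90 in Control, and it was listed at 0 in HF. Pomc, the precursor of corticotropin in the pituitary and of melanocortins in arcuate neurons (chromosome 12, 3954951 to 3960642), was at 369.7 RPKM in PGF, 16.1 in PGM, 22.4 in HM, 20.5 in HF and 24.3 in Control. Its 3 transcripts gave differences between 3.89 and 3.90.

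The subunits of the glycoprotein hormones were highest in PGF as well. Tshb, the specific subunit of thyrotropin, was at 32.3 RPKM in PGF, 2.43 in PGM, 2.92 in HM, 1.87 in HF and 2.07 in Control. Lhb, the subunit of luteinizing hormone, was at 21.3 RPKM in PGF, 2.1 in PGM, 1.99 in HM, 0.72 in HF and 3.19 in Control. Fshb, the subunit of follicle-stimulating hormone, was at 13.1 RPKM in PGF, 0.23 in PGM, 0.35 in HM, 0.09 in HF and 0.83 in Control. Below PGF the order of the other 4 groups differed from gene to gene. Cga, the subunit that these hormones share, was at 170.3 RPKM in PGF, 5.60 in PGM, 20.8 in HM, 18.9 in HF and 26.2 in Control. Summed over the 7 genes, the level was 2025.2 RPKM in PGF, 87.9 in PGM, 111.8 in HM, 58.6 in HF and 97.3 in Control.

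**Figure D1:**
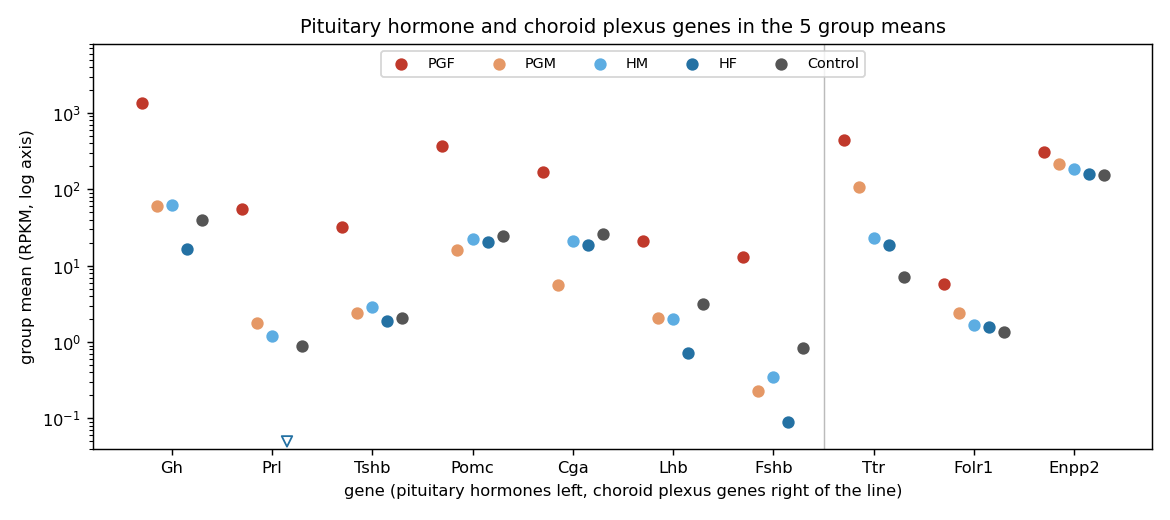
Mean RPKM (log axis) of 7 pituitary hormone genes and, right of the line, 3 choroid plexus genes in the 5 groups, with 1 point per group mean and PGF at the left of each set. An open triangle at the base marks Prl in HF, which was listed at 0. PGF is the highest group for all 10 genes, with Gh at 1363 RPKM in PGF and 39.8 RPKM in Control.

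Genes that regulate these hormones were near or below the level at which genes were compared. Of 19 pituitary transcription factors and receptors, 7 were measured, 0 were higher and 1 was lower, the estrogen receptor gene Esr1 at 3.93 RPKM in PGF and 6.89 RPKM in Control. Among those under the filter, Pou1f1, the factor that specifies somatotrophs, lactotrophs and thyrotrophs, was at 1.2 RPKM in PGF, 0.06 in PGM, 0.055 in HM and 0.015 in Control, and was listed at 0 in HF. Ghrhr, the somatotroph receptor for growth hormone releasing hormone, was at 1.60 RPKM in PGF and 0.03 RPKM in Control. Gnrhr, the gonadotroph receptor for gonadotropin-releasing hormone, was at 1.2 RPKM in PGF and 0.10 RPKM in Control. The filter took a mean over 5 groups, so a gene present in PGF alone needed a high level to pass. Epcam, an adhesion molecule of epithelia that is also present in the pituitary, was at 8.70 RPKM in PGF, 1.74 in PGM, 2.45 in HM, 2.55 in HF and 3.01 in Control. It comes from a list of 7 measured epithelial genes of which 2 were higher and 1 was lower, with a median of -0.03, and Cdh1, the E-cadherin gene, was the lower one at 1.31 RPKM in PGF and 3.01 RPKM in Control. Genes of regulated secretion, which hypothalamic neurons also express, did not separate the groups. Of 12 measured, 0 were higher and 1 was lower, Gpx3 at 99.5 RPKM in PGF and 150.2 RPKM in Control, while Chga was at 359.5 RPKM in PGF and 349 RPKM in Control. In group means of bulk tissue, more cells of a type and more RNA per cell cannot be told apart, and whether the amount of pituitary in the samples differed was not tested.

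The start regions of the hormone genes are shown because these genes stood high together. Of the 7 genes, 6 had an entry among the RefSeq promoters (GRCm38.p6), and the 250 bases before the annotated start were searched on both strands for 2 motifs. ATGNATA is a core that Pit-1, the product of Pou1f1, can bind, and AAGGTCA is a core for nuclear receptors such as the Nr5a1 product. ATGNATA was found before 1 of the 6 genes, Prl, where it occurred at -148 to -142 and at -47 to -41 from the start, and in 7.92% of 32851 promoters. AAGGTCA was found before 2 of the 6, Pomc at -63 to -57 and Lhb at -129 to -123, and in 4.08% of promoters. A match is a description of letters and not a bound site. Capitals mark the matches. Prl lies at chr13:27057320-27057569, Pomc at chr12:3954695-3954944 and Lhb at chr7:45420696-45420945, all on the plus strand.
Prl: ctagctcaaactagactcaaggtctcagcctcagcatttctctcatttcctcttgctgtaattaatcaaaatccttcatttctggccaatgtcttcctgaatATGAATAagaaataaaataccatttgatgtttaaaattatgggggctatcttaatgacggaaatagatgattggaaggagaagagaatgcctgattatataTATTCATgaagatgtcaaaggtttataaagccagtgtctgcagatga
Pomc: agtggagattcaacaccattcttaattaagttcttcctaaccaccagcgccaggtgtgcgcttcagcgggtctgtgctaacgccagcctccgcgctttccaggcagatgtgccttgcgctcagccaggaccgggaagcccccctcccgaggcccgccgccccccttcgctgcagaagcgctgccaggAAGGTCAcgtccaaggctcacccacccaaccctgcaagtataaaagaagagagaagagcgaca
Lhb: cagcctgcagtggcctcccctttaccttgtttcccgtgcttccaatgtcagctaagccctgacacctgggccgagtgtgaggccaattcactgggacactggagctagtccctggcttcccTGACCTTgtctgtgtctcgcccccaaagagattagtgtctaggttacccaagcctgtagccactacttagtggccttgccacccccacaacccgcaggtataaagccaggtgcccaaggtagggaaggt

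Ttr encodes transthyretin, the thyroxine carrier that the choroid plexus secretes into the ventricles (chromosome 18, 20665280 to 20674321). It was at 440.5 RPKM in PGF, 106 in PGM, 22.8 in HM, 18.7 in HF and 7.01 in Control. PGM came next after PGF, and Control was the lowest group. Of 15 choroid plexus genes, 11 were measured, 5 were higher and 0 were lower, with a median difference of 0.38. Enpp2, the lysophospholipase autotaxin, was at 309 RPKM in PGF and 153 RPKM in Control, and it is made by oligodendrocytes too. Folr1, a folate receptor, was at 5.67 RPKM in PGF and 1.35 RPKM in Control. Otx2, a transcription factor of the plexus, was at 5.87 RPKM in PGF and 3.50 RPKM in Control, and Aqp1, a water channel, at 2.66 RPKM in PGF and 1.13 RPKM in Control. Kcnj13, a potassium channel of the plexus, was at 4.27 RPKM in PGF and 4.62 RPKM in Control, and Clic6 at 5.96 RPKM in PGF and 4.78 RPKM in Control. The summed level of the list was 883 RPKM in PGF and 283 RPKM in Control. Without Ttr and Enpp2 the other 13 genes summed to 134 RPKM in PGF and 123 RPKM in Control. Most of that sum was Igfbp2, at 86.9 RPKM in PGF and 88.5 RPKM in Control. Of the 11 measured genes 8 were above 0 and 3 below. Under the filter, Cldn2 was at 1.53 RPKM in PGF and 0.63 RPKM in Control, and Kcne2 at 1.30 and 0.23. Slc4a5 was at 0.71 RPKM in PGF and 0.11 RPKM in Control, and Trpv4 at 0.93 and 0.775. The part of choroid plexus tissue in the Ttr difference was not tested. Ependymal cilia genes, which mark the cells that line the ventricle, had 16 measured members with 0 higher and 0 lower. Among 12 measured tanycyte genes, 2 were higher and 1 was lower.

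Myelin genes formed the broadest group on the high side. All 20 genes of compact myelin were above 0, 16 of them were at least 1.5-fold higher, and PGF had the highest of the 5 means for all 20. Their median difference was 0.93, against -0.03 over all genes. Mal, which encodes a small membrane protein of myelin, was at 425.5 RPKM in PGF, 311 in PGM, 265 in HM, 173 in HF and 159 in Control. PGF was the highest group for Mal, and HF and Control were close together. Ppp1r14a, a phosphatase inhibitor, was at 66.3 RPKM in PGF and 26.3 RPKM in Control. Gjb1, the connexin of oligodendrocyte gap junctions, was at 37.6 RPKM in PGF and 16.1 RPKM in Control, and Cryab, a small heat shock protein of oligodendrocytes, at 71.3 RPKM in PGF and 31.8 RPKM in Control. At the other end of the list, Cd9, a tetraspanin gene, was at 113 RPKM in PGF and 97.0 RPKM in Control, a difference of 0.22. Mbp, the myelin basic protein gene, had 8 transcripts with differences between 0.81 and 1.01.

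Enzymes that build myelin lipids were also on the high side. All 12 were above 0 and 6 were higher, with a median difference of 0.53. Ugt8a, which makes galactosylceramide, was at 238 RPKM in PGF and 131 RPKM in Control. Fa2h, which hydroxylates its fatty acids, was at 65.6 RPKM in PGF and 35.9 RPKM in Control. Aspa, which frees acetate for lipid synthesis, was at 15.3 RPKM in PGF and 8.20 RPKM in Control, and the fatty acid elongase gene Elovl1 was at 48.1 RPKM in PGF and 29.3 RPKM in Control. General cholesterol synthesis was flatter. Of 27 genes 0 were higher and 0 were lower, with a median of 0.20.

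Genes of the paranode, adhesion and axon support had 14 measured members, 6 of them higher and 0 lower, and a median of 0.50. Hapln2, a matrix link protein of the nodes of Ranvier, was at 14.2 RPKM in PGF, 11.96 in PGM, 8.62 in HM, 5.62 in HF and 4.16 in Control. Trf, the transferrin gene that mature oligodendrocytes express, was at 350 RPKM in PGF and 174 RPKM in Control. Anln, a septin scaffold, was at 10.1 RPKM in PGF and 4.72 RPKM in Control. Klk6, a protease of oligodendrocytes outside the lists and named after its values were seen, was at 6.02 RPKM in PGF and 1.65 RPKM in Control. Its 4 transcripts gave differences between 1.55 and 1.66.

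The earlier stages of the lineage had values nearer to Control. The 13 factors and early markers had 0 higher and 0 lower with a median of 0.17, and Sox10 was at 38.9 RPKM in PGF and 35.05 RPKM in Control. The 10 precursor genes had 0 higher and 0 lower with a median of -0.12. Among them Pdgfra, the growth factor receptor of the precursors, was at 55.6 RPKM in PGF and 65.55 RPKM in Control, and Cspg4, the NG2 proteoglycan, was at 18.45 RPKM in PGF and 25.6 RPKM in Control. Counted once each, the genes of compact myelin, its lipids and its support made 45, of which 27 were higher and 0 lower. Other cell classes of the tissue showed few calls. Over all genes 4.06% were called in either direction, so lists of 18 genes are too short to set them apart from that share. The 18 astrocyte genes and the 18 genes of endothelium and pericytes had 0 higher and 0 lower. Of 18 microglia genes, 1 was higher, Spp1 at 11.2 RPKM in PGF and 5.66 RPKM in Control, and 1 was lower, Lpl at 11.7 RPKM in PGF and 17.99 RPKM in Control, which turned to 0.12 when the highest transcript was used.

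**Figure D2:**
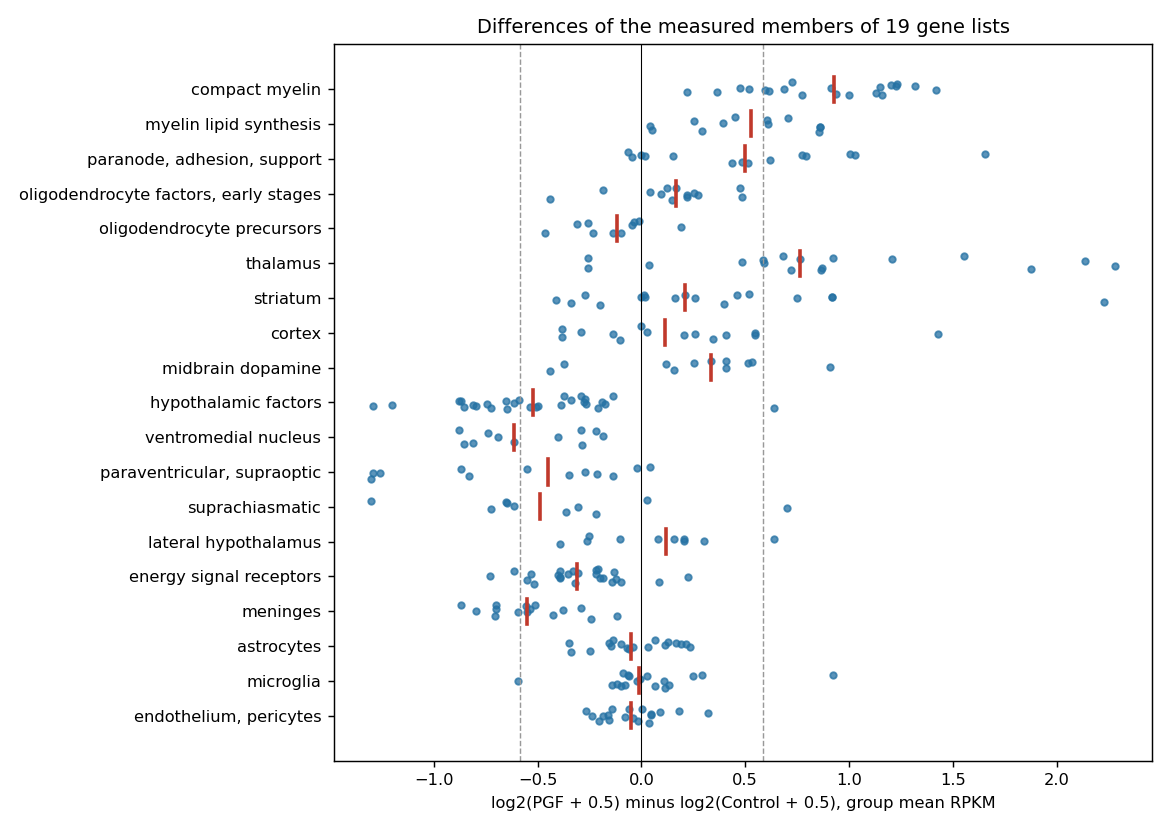
Difference of each measured member of 19 gene lists, log2(PGF + 0.5) minus log2(Control + 0.5), with 1 point per gene, a red bar at the list median and dashed lines at 1.5-fold. Compact myelin (median 0.93) and thalamus (0.76) lie right of 0, hypothalamic factors (-0.52) and ventromedial nucleus genes (-0.62) left of it. Pomc and Ttr are not in the lists drawn.

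Markers of structures next to the hypothalamus were unevenly higher. Of 17 measured thalamic genes 13 were higher and 0 were lower, with a median of 0.76. Prkcd, the delta isoform of protein kinase C, which marks relay neurons, was at 156 RPKM in PGF, 154 in PGM, 69.2 in HM, 38.2 in HF and 35.01 in Control. Gabrd, the delta subunit of extrasynaptic GABA receptors, was at 42.2 RPKM in PGF, 43.7 in PGM, 17.5 in HM, 9.72 in HF and 8.28 in Control. PGF and PGM were thus alike in these genes and HF was near Control. Tnnt1, a troponin gene also transcribed in thalamus, was at 18.3 RPKM in PGF, 20.95 in PGM, 9.77 in HM, 7.58 in HF and 4.62 in Control. Shox2, a homeobox gene of thalamic neurons named after its values were seen, was at 33.3 RPKM in PGF, 38.1 in PGM, 20.9 in HM, 11.3 in HF and 11.8 in Control. Slc17a6, the glutamate transporter gene that thalamus and hypothalamus share, was at 267.5 RPKM in PGF and 261 RPKM in Control. PGF had the highest of the 5 means for 4 of the 17 thalamic genes, against 20 of 20 for compact myelin.

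The habenula adjoins the thalamus, and no list of its genes was drawn up. Gpr151, a receptor of habenular neurons named after its values were seen, was at 7.41 RPKM in PGF, 2.42 in PGM, 1.68 in HM, 1.55 in HF and 1.62 in Control. PGM, which was level with PGF for Prkcd, lay near the other groups for Gpr151. Pou4f1, a factor of the same neurons, was below the filter. It was at 1.45 RPKM in PGF, 0.50 in PGM, 0.97 in HM, 0.70 in HF and 0.58 in Control.

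Striatum, cortex and midbrain contributed fewer genes. Of 17 striatal genes 4 were higher and 0 were lower, with a median of 0.21. Ppp1r1b, the phosphatase inhibitor DARPP-32, was at 19.2 RPKM in PGF, 40.4 in PGM, 13.4 in HM, 13.9 in HF and 3.70 in Control. Control was the lowest group for Ppp1r1b, and with the mean of PGM, HM and HF as the reference its difference was -0.03 and the median of the striatal list -0.15. Of 14 cortical genes 1 was higher, the vesicular glutamate transporter gene Slc17a7 at 55.2 RPKM in PGF and 20.2 RPKM in Control, which thalamic neurons express too. Of 11 midbrain dopamine genes 1 was higher, the dopamine transporter gene Slc6a3 at 110 RPKM in PGF, 45.95 in PGM, 76.9 in HM, 123 in HF and 58.1 in Control. With HF as the reference Slc6a3 was at -0.16 and the dopamine list had a median of -0.32. Counted once each, the 59 genes of the neighbouring regions had 19 higher and 0 lower.

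Genes of hypothalamic neurons were on the low side. Of 28 transcription factors of the hypothalamus, 1 was higher and 13 were lower, with a median of -0.52, and 27 were below 0. Otp, needed for neuroendocrine neurons of the paraventricular nucleus, was at 3.15 RPKM in PGF, 3.56 in PGM, 5.07 in HM, 6.05 in HF and 8.45 in Control. Hmx3, a homeobox factor, was at 1.56 RPKM in PGF, 3.07 in PGM, 3.06 in HM, 3.99 in HF and 4.23 in Control. For both genes PGF was the lowest and Control the highest group. Sim1, a partner of Otp in the same nucleus, was at 2.88 RPKM in PGF and 5.68 RPKM in Control. Fezf1, a factor of the ventromedial nucleus, was at 5.29 RPKM in PGF and 9.65 RPKM in Control. The exception above 0 was Lhx9, a factor of orexin neurons and of thalamus, at 7.49 RPKM in PGF and 4.63 RPKM in Control.

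The nuclei did not differ alike. All 11 ventromedial genes were below 0 and 6 were lower, with a median of -0.62, the lowest of the nuclei compared. They included Nr5a1, at 2.71 RPKM in PGF and 5.41 RPKM in Control, and Adcyap1, the precursor of the peptide PACAP, at 54.4 RPKM in PGF and 88.1 RPKM in Control. Nr5a1 is also a factor of pituitary gonadotrophs, whose hormone genes stood on the high side. In the paraventricular and supraoptic list 5 of 12 were lower and 0 higher, with a median of -0.45. Avp was at 267 RPKM in PGF, 352 in PGM, 525 in HM, 521 in HF and 658.5 in Control, and Oxt was at 210.4 RPKM in PGF, 289 in PGM, 459 in HM, 418 in HF and 503.6 in Control. Both precursors had the same order of groups, with PGF lowest and Control highest. Crh, the releasing hormone for corticotropin made in the same nucleus, was at 9.48 RPKM in PGF and 9.19 RPKM in Control.

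In the suprachiasmatic list 5 of 10 were lower and 1 was higher, with a median of -0.49. Vip, a peptide of the clock neurons, was at 5.12 RPKM in PGF and 8.32 RPKM in Control, while its receptor gene Vipr2 was at 5.52 RPKM in PGF and 3.20 RPKM in Control. Zfhx3, a factor of these neurons, was at 12.2 RPKM in PGF and 20.4 RPKM in Control. The clock genes themselves were flatter. Of 19 circadian genes 1 was higher, Rora, which is a thalamic gene as well, and 0 were lower. In the arcuate list 4 of 12 were lower, and 1 was higher, which was Pomc. Agrp, the appetite peptide, was at 4.64 RPKM in PGF, 6.58 in PGM, 18.1 in HM, 16.2 in HF and 12.7 in Control, so that HM and HF lay above Control. Npy, made in the same neurons as Agrp, was at 62.5 RPKM in PGF and 83.5 RPKM in Control. Kiss1, the peptide that drives gonadotropin-releasing neurons, was at 1.08 RPKM in PGF and 2.90 RPKM in Control.

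The lateral hypothalamus was the exception. Of its 10 genes 0 were lower and 1 was higher, Lhx9, and the median was 0.12. In the mammillary list 1 of 8 was lower, Lhx1 at 4.43 RPKM in PGF and 7.22 RPKM in Control, and 1 was higher, Cck, which is abundant in thalamus and cortex, at 217 RPKM in PGF and 114 RPKM in Control. Counted once each, the 58 genes of the nuclei had 4 higher and 19 lower. Thalamic and myelin genes were on the high side in the same samples, and the share of each region in the dissected tissue was not tested.

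**Figure D3:**
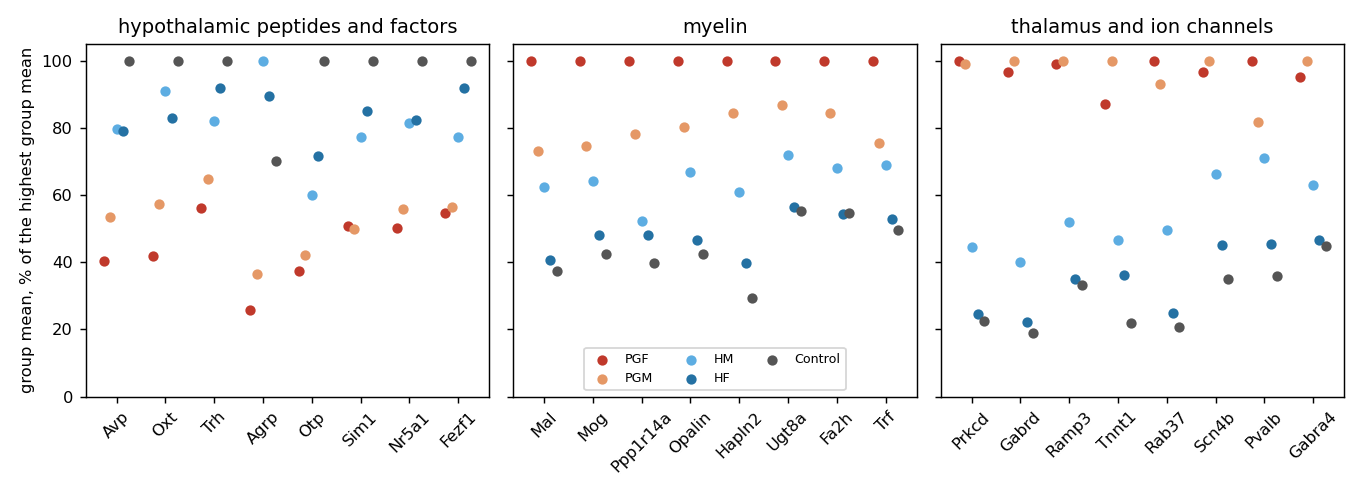
Group means of 24 genes as a percentage of the highest of the 5 means of each gene, with PGF at the left of each set and Control at the right. PGF is the lowest group for Avp and Oxt, the highest for the 8 myelin genes, and close to PGM for thalamic genes such as Prkcd (156 RPKM in PGF, 154 in PGM and 35.01 in Control).

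Calls among genes of the endocrine axes were uneven, set beside 2.16% higher and 1.90% lower over all genes. Of 24 receptors for energy signals 22 were below 0 and 2 were lower, the calcitonin receptor gene Calcr at 18.2 RPKM in PGF and 30.5 RPKM in Control, and the cholecystokinin receptor gene Cckar at 4.99 RPKM in PGF and 7.91 RPKM in Control. In the reproductive axis 4 of 13 were lower and 0 higher. Gnrh1, the precursor of gonadotropin-releasing hormone, was at 5.71 RPKM in PGF, 9.41 in PGM, 9.69 in HM, 11.7 in HF and 9.28 in Control, so PGF was apart from all other groups. Npvf, the precursor of RFamide peptides that restrain gonadotropins, was at 5.36 RPKM in PGF and 8.56 RPKM in Control. In the growth axis 1 of 20 was lower, Ghrh, whose peptide makes somatotrophs secrete, at 5.96 RPKM in PGF and 10.85 RPKM in Control. In that axis 1 was higher, Socs2, an inhibitor of growth hormone signalling, at 14.2 RPKM in PGF and 9.09 RPKM in Control. In the stress axis 0 of 11 were higher or lower, and of 15 genes that respond to glucocorticoids 0 were higher or lower.

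Thyroid hormone reaches neurons through transporters, is activated by a deiodinase in glia, and acts on nuclear receptors. Of 9 measured genes of transport and activation 4 were higher and 0 were lower. Besides Ttr these were Dio2, the activating deiodinase of astrocytes and tanycytes, Iyd, which recovers iodide, and Crym, which binds the hormone in the cytosol. Dio2 was at 23.45 RPKM in PGF, 17.7 in PGM, 21.6 in HM, 16.8 in HF and 14.5 in Control. Iyd was at 7.21 RPKM in PGF, 7.80 in PGM, 4.03 in HM, 2.72 in HF and 3.25 in Control. Crym was at 7.96 RPKM in PGF, 21.2 in PGM, 10.1 in HM, 13.9 in HF and 4.83 in Control, so PGF was above Control alone, and its difference was -0.76 with HF as the reference. The transporter gene Slco1c1 differed by 0.47 and was not counted.

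Of 15 receptors and coregulators 0 were higher. Thra, which encodes the main receptor of neurons, was at 365 RPKM in PGF and 404 RPKM in Control, and Thrb was at 11.5 RPKM in PGF and 10.6 RPKM in Control, so neither reached 1.5-fold. Of 16 genes known to respond to the hormone 2 were higher, Mbp and Sema7a, a membrane-anchored guidance molecule, at 36.8 RPKM in PGF and 23.2 RPKM in Control. Hr, a direct target, differed by 0.49, Klf9 by 0.17 and Reln, the reelin gene, by -0.57, and these were not counted. Among 10 genes of the Trh system 1 was lower, Trh itself, at 75.95 RPKM in PGF, 87.9 in PGM, 111 in HM, 124 in HF and 135 in Control. Its receptor gene Trhr differed by -0.55.

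Small noncoding RNAs were a further group on the high side, and 6 sequences, picked after their values were seen, are printed here, those of U11, U12 and 4 H/ACA snoRNAs. H/ACA small nucleolar RNAs are cut from introns of host genes and guide pseudouridylation of ribosomal and spliceosomal RNA. The snRNAs U11 and U12 base-pair with the rare U12-type introns in the minor spliceosome. The sequences were read from the mouse genome (GRCm38, GENCODE M21 annotation), and capitals mark an ACA near the end of the snoRNAs, which names their class. Rnu11 lies at chr4:132270080-132270213 on the minus strand, Rnu12 at chr15:83149644-83149794, Snora81 at chr16:23110756-23110933, Snora23 at chr7:110046364-110046547, Snora64 at chr17:24720772-24720905 and Snora69 at chrX:37082912-37083042 on the minus strand. The ACA stands 1 base before the annotated end of Snora23 and 3 bases before that of Snora64 and Snora69, and none stands near the annotated end of Snora81.
Rnu11: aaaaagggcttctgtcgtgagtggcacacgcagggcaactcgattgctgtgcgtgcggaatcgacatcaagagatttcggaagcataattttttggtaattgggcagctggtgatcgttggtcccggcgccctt
Rnu12: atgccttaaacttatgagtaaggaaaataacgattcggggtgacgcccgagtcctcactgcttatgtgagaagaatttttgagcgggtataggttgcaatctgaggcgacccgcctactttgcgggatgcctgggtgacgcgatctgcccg
Snora81: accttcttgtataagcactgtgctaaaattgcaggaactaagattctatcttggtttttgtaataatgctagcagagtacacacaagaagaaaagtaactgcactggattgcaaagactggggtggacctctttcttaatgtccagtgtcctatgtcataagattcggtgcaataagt
Snora23: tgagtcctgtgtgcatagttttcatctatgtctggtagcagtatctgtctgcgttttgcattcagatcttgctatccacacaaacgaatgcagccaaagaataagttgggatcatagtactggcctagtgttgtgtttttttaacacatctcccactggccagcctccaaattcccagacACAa
Snora64: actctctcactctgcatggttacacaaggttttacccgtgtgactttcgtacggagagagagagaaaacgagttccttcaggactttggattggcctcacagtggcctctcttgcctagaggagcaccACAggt
Snora69: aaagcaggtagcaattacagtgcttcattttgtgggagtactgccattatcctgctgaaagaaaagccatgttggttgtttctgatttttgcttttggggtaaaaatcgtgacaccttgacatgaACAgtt

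Rnu11, the gene of U11, was at 994 RPKM in PGF, 363 in PGM, 416 in HM, 440.2 in HF and 204 in Control. Rnu12, the gene of U12, was at 985 RPKM in PGF, 312 in PGM, 374 in HM, 383 in HF and 191 in Control. The snRNAs stood in the same order of groups, with PGF highest, HF next and Control lowest. Genes of the proteins that U11 and U12 bind, looked up after these values were seen, were near Control. Rnpc3 differed by 0.12, Zcrb1 by 0.13, Snrnp25 by 0.23, Snrnp35 by 0.33, Snrnp48 by 0.09, Pdcd7 by -0.03 and Zmat5 by 0.00.

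The small RNA classes were drawn up after values were seen. Of 33 measured H/ACA snoRNAs 21 were higher and 0 were lower, with a median difference of 0.78, and PGF had the highest of the 5 means for 25. Snora81 was at 202 RPKM in PGF, 35.1 in PGM, 83.9 in HM, 127 in HF and 35.5 in Control. Snora23 was at 264.5 RPKM in PGF, 122 in PGM, 110.3 in HM, 123 in HF and 62.7 in Control. Snora69 was at 21.3 RPKM in PGF, 6.55 in PGM, 10.35 in HM, 10.6 in HF and 3.95 in Control. Control was the lowest group for Snora23 and Snora69, and for Snora81 it was level with PGM. Snora64 was at 263 RPKM in PGF, 130.02 in PGM, 153 in HM, 186 in HF and 80.1 in Control. Genes of the 4 core proteins of these particles differed little. Dkc1, the pseudouridine synthase dyskerin, differed by -0.14, Nhp2 by 0.33, Nop10 by 0.03 and Gar1 by 0.04.

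The host genes were near Control. A host could be assigned to 29 of the H/ACA snoRNAs by position and strand, among them all 21 that were higher. The 20 hosts of those 21 lay between -0.42 and 0.24 with a median of -0.01, and 0 of them reached 1.5-fold. Snora81 lies in Eif4a2, a translation initiation factor gene at 601 RPKM in PGF and 540.5 RPKM in Control. Snora23 lies in Ipo7, an importin gene at 96.5 RPKM in PGF and 96.7 RPKM in Control. Snora64 lies in Rps2, a ribosomal protein gene at 1026 RPKM in PGF and 1052 RPKM in Control.

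**Figure D4:**
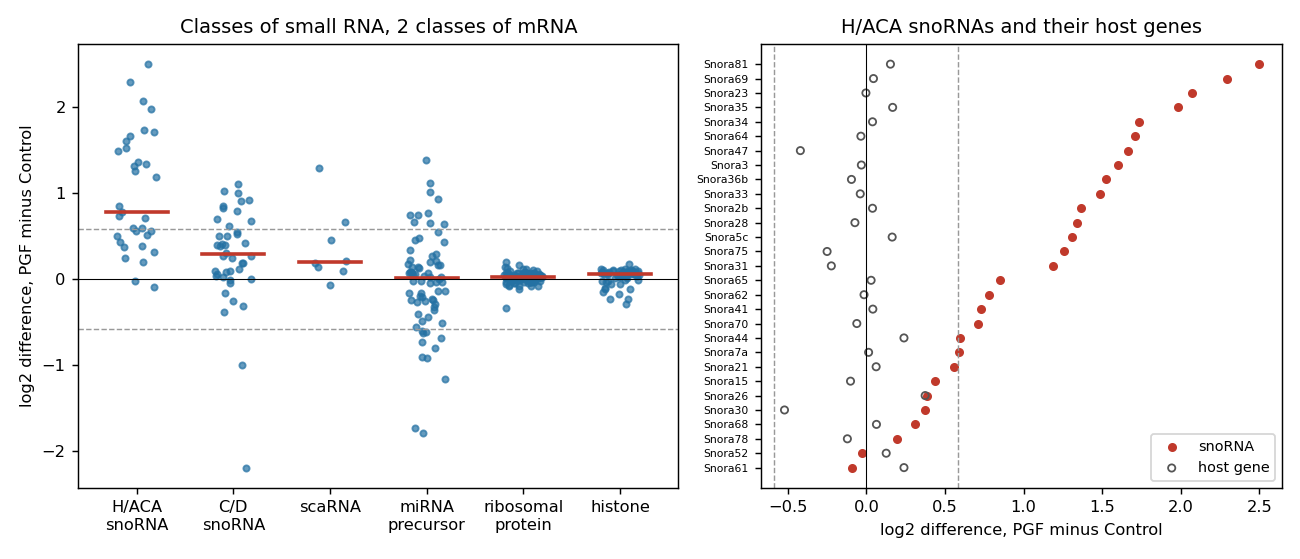
Left, difference between PGF and Control of each measured member of 4 classes of small RNA and 2 classes of mRNA, with class medians in red and dashed lines at 1.5-fold. Right, each H/ACA snoRNA (filled) with its host gene (open). The snoRNA median is 0.78, while the hosts of the 21 snoRNAs that were higher lie between -0.42 and 0.24.

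Other small RNAs were mixed. Of 42 measured C/D box snoRNAs, which guide methylation, 11 were higher and 2 were lower, with a median of 0.29. Snord22 was at 3357 RPKM in PGF and 1778 RPKM in Control, whereas Snord116, an imprinted cluster, was at 2277 RPKM in PGF and 2291 RPKM in Control. Snord45c was at 1.36 RPKM in PGF and 3.23 RPKM in Control, and Snord111 was listed at 0 in PGF and was at 1.79 RPKM in Control. Of 8 small Cajal body RNAs 2 were higher, Scarna8 at 11.4 RPKM in PGF and 4.39 RPKM in Control, and Scarna3b at 88.2 RPKM in PGF and 55.5 RPKM in Control. Vaultrc5, a vault RNA, was at 135 RPKM in PGF, 30.05 in PGM, 42.6 in HM, 41.4 in HF and 25.4 in Control. More abundant RNAs of other classes differed by less. Rmrp, the RNA of RNase MRP, differed by 0.20, Rpph1, the RNA of RNase P, by 0.36, and Rnu1b2, a U1 gene, by 0.41. The 80 ribosomal protein genes and the 60 replication-dependent histone genes had 0 higher and 0 lower.

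Precursors of microRNAs had calls in both directions. Of 72 measured, 10 were higher and 11 were lower, with a median of 0.01, beside 2.16% higher and 1.90% lower over all genes. Calls in both directions were more frequent at low levels and short lengths. Among genes from 1 to below 2 RPKM 4.69% were higher and 4.08% lower. Among genes of up to 100 nucleotides, which include many of these precursors, 18.5% were higher and 10.9% lower. The part of level and length in these calls was not tested. The precursors farthest out with a deposited value above 0 in both groups are shown by their mature RNAs from RefSeq (GRCm38.p6), with the seed, bases 2 to 8, in capitals. Mir341 of the imprinted Dlk1-Dio3 region was at 1.22 RPKM in PGF, 2.17 in PGM, 4.08 in HM, 5.42 in HF and 5.45 in Control. Mir677 was at 5.11 RPKM in PGF, 2.78 in PGM, 2.77 in HM, 3.14 in HF and 1.65 in Control. The RPKM are those of the annotated precursor and do not measure the mature RNA. The 4 seeds differ from each other.
mmu-miR-341-5p: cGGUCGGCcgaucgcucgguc
mmu-miR-341-3p: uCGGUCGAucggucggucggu
mmu-miR-677-5p: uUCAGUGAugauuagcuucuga
mmu-miR-677-3p: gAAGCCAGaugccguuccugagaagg

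The difference also varied with the length of the transcript. Of the compared genes 85.8% could be given an annotated length. The median difference was 0.56 for the 64 genes above 100 and up to 200 nucleotides, of which 48.4% were higher, and 0.07 for the 92 genes of up to 100 nucleotides. It was 0.02 for genes above 300 and up to 1000 nucleotides, -0.06 for those above 2000 and up to 4000, -0.11 for the 1094 genes above 4000 and up to 8000 and -0.29 for the 81 genes above 8000. The snoRNAs and snRNAs above belong to the shortest bins. RPKM divides by length, and whether recovery of RNA by size differed between the groups was not tested.

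**Figure D5:**
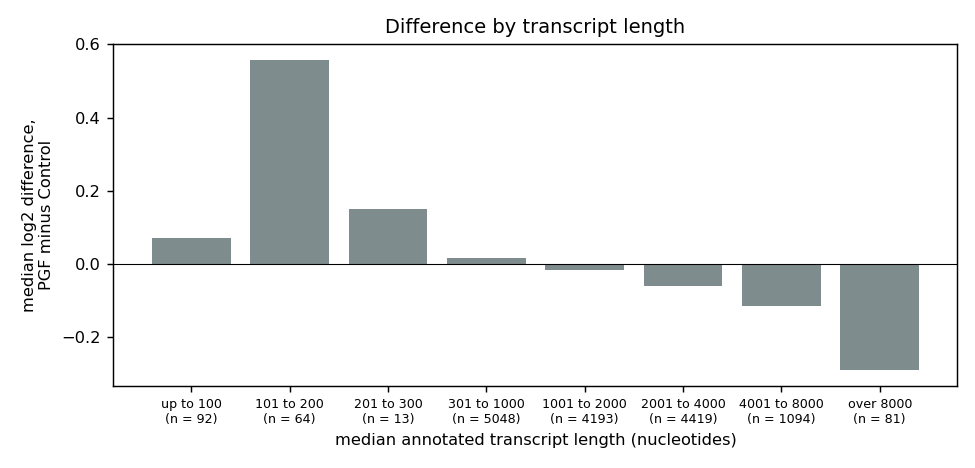
Median difference between PGF and Control, log2 of RPKM + 0.5, in 8 bins of annotated transcript length in nucleotides, with the number of genes under each bar. The bar of the genes above 100 and up to 200 nucleotides stands at 0.56, and above 300 nucleotides the medians go down stepwise to -0.29 in the bin over 8000. The bin that ends at 300 nucleotides holds 13 genes.

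Genes that set the excitability of neurons were mostly level, with a few far apart, set beside 2.16% higher and 1.90% lower over all genes. Of 38 receptors for glutamate and GABA 3 were higher and 3 were lower. Beside Gabrd, Gabra4, the subunit that pairs with delta in thalamus, was at 75.3 RPKM in PGF, 79.0 in PGM, 49.8 in HM, 36.8 in HF and 35.4 in Control, and Grin2c was at 24.4 RPKM in PGF and 15.5 RPKM in Control. The lower ones were Gabre and Gabrq, the epsilon and theta subunits found in hypothalamus and brainstem, and the kainate receptor gene Grik5. Gabre was at 4.38 RPKM in PGF, 5.33 in PGM, 7.33 in HM, 8.09 in HF and 10.985 in Control. Gabrq was at 35.7 RPKM in PGF and 56.2 RPKM in Control. GABA receptor genes thus stood on both sides, the delta and alpha 4 subunits high and the epsilon and theta subunits low.

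Of 42 potassium channel genes 2 were higher, Kcna1 at 66.6 RPKM in PGF and 36.1 RPKM in Control and Kcnab3 at 18.3 RPKM in PGF and 9.84 RPKM in Control, and 1 was lower, Kcnh1 at 10.9 RPKM in PGF and 17.8 RPKM in Control. Of 26 sodium and calcium channel genes 1 was higher, Scn4b, the beta 4 subunit, at 26.9 RPKM in PGF and 9.74 RPKM in Control. Pvalb, the calcium buffer of fast-spiking neurons, was at 84.2 RPKM in PGF, 68.8 in PGM, 59.9 in HM, 38.4 in HF and 30.3 in Control. Cplx1, a regulator of vesicle release, was at 488 RPKM in PGF and 255 RPKM in Control, the 1 higher gene of 22 synaptic vesicle genes. With 4.06% of all genes called in either direction, these channel and vesicle lists are too short to be set apart from that share. Among transmitter genes Hdc, the histamine enzyme of the tuberomammillary nucleus, was at 22.55 RPKM in PGF and 35.55 RPKM in Control, and Nos1, the neuronal nitric oxide synthase gene, at 24.5 RPKM in PGF and 38.2 RPKM in Control. Gad1 and Slc32a1, which mark GABA neurons, differed by 0.02 and -0.02.

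Meningeal genes were on the low side. Of 15 meningeal genes all were below 0 and 6 were lower, with a median of -0.55. Ptgds, the prostaglandin D synthase of the meninges, was at 803 RPKM in PGF, 538 in PGM, 696 in HM, 1544 in HF and 1468 in Control, and Nov at 14.3 RPKM in PGF, 13.9 in PGM, 14.02 in HM, 26.3 in HF and 25.2 in Control. HF and Control were high for both genes and the other groups low. Of 5 erythroid genes 0 were higher or lower, with a median of -0.46, and of 0.31 against the mean of PGM, HM and HF. Of 20 lens genes 6 were measured and 1 was lower, Bfsp2, a filament protein of the lens, at 1.29 RPKM in PGF, 1.73 in PGM, 4.59 in HM, 4.94 in HF and 5.82 in Control. The lens crystallin gene Cryaa was below the filter at 0.21 RPKM in PGF and 2.72 RPKM in Control, and Crygc was listed at 0 in PGF and was at 2.06 RPKM in Control.

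Genes of the Y chromosome and Xist stood apart as well. Ddx3y, an RNA helicase gene, was at 31.97 RPKM in PGF, 30.4 in PGM, 16.8 in HM, 15.9 in HF and 2.52 in Control. Eif2s3y, Uty and Kdm5d were higher too, at 24.75, 10.015 and 10.99 RPKM in PGF and 2.0, 0.92 and 1.0 RPKM in Control. Xist, the RNA that coats the inactive X chromosome, was at 11.6 RPKM in PGF, 14.2 in PGM, 26.4 in HM, 35.4 in HF and 44.005 in Control. Its antisense gene Tsix was lower as well, and without knowledge of strand in the counting the pair cannot be told apart. Over the whole X chromosome 10 of 527 genes were higher and 17 were lower, with a median of -0.08. No sex stands in the labels used here, and the part of a different share of males in these and the other differences was not tested.

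Imprinted genes and chromatin enzymes leaned low, set beside 1.90% of all genes lower and 55.6% below 0. Of 40 imprinted genes 0 were higher and 7 were lower, with a median of -0.30. Zdbf2 was at 34.4 RPKM in PGF, 34.3 in PGM, 46.4 in HM, 56.4 in HF and 68.2 in Control. H19, a maternally expressed RNA, was at 3.45 RPKM in PGF, 2.93 in PGM, 4.69 in HM, 7.44 in HF and 7.18 in Control, and Mest, a paternally expressed gene, at 98.05 RPKM in PGF and 174 RPKM in Control. Meg3 and Rian of the Dlk1-Dio3 region differed by -0.03 and -0.06. Of 51 enzymes of DNA methylation and histone modification 42 were below 0, with a median of -0.15. In that list 0 were higher and 2 were lower, too few calls to set it apart from the share over all genes. The lower ones were the demethylase gene Kdm6b at 4.39 RPKM in PGF and 8.91 RPKM in Control and the methyltransferase gene Setd1b at 1.85 RPKM in PGF and 3.46 RPKM in Control. The DNA methyltransferase genes Dnmt1 and Dnmt3a differed by -0.19 and -0.39. Clustered protocadherin genes, 59 in all, had 0 higher and 0 lower, yet 2 of the 59 were above 0. Many had nearly equal values, such as Pcdhga1 at 139.9 RPKM and Pcdhga2 at 140.1 RPKM in PGF. They may therefore not be separate measurements, and whether they share reads was not tested.

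Several genes stood out that belong to no such group. Gstt1, a glutathione transferase, was at 6.26 RPKM in PGF, 14.6 in PGM, 15.35 in HM, 14.02 in HF and 13.7 in Control, so that PGF alone was low. Gm5741, a name without an annotated role, was at 10.1 RPKM in PGF, 0.30 in PGM, 0.70 in HM, 0.59 in HF and 0.45 in Control. It reached the required mean of 1 RPKM only through its level in PGF, so its place among the compared genes depends on that level. Dgkk, a diacylglycerol kinase gene of the X chromosome, was at 17.3 RPKM in PGF, 18.55 in PGM, 26.1 in HM, 33.02 in HF and 44.7 in Control. Irs4, an insulin receptor substrate abundant in hypothalamus, was at 32.5 RPKM in PGF, 34.8 in PGM, 51.2 in HM, 61.8 in HF and 67.8 in Control. Both genes had the order of groups seen for Otp. Shank1, a scaffold of excitatory synapses, was at 14.6 RPKM in PGF, 23.6 in PGM, 19.1 in HM, 19.1 in HF and 30.5 in Control. Arntl2, a partner of CLOCK named after its values were seen, was at 4.47 RPKM in PGF, 3.55 in PGM, 1.37 in HM, 2.68 in HF and 0.78 in Control.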

How the data were processed

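Total RNA of 15 hypothalamus samples was sequenced. Reads were checked with FastQC and aligned with Novoalign 2.08 to mm10, per the submitters' processing notes. Not given in the sources used here are the depth, the read counter and how it treated strand, isoforms and near-identical genes. The authors deposited RPKM averaged over each group's samples, so no test fits these values and differences are described. Here 1 stray header line was dropped, the median over transcripts was taken per gene name, a mean of at least 1 RPKM over 5 groups was required, and 0.5 was added before log2. Of 17481 genes 87.4% matched RefSeq names. The scripts were checked on data with known folds. The members and the 61 gene lists were chosen with earlier results of these data known. Named genes are the 25 largest differences in each direction with at least 2 RPKM in PGF or Control, and in each list the first 4 members and the 6 largest differences, of which a part is printed, and some are not reported here. Genes outside this rule, small RNA classes, hosts, motifs and length bins were chosen after values were seen. All comparisons with Control share its samples. Lens gamma crystallins and other close paralogs are uncertain as single genes. The table lists Smcy and Kdm5d apart although they are names of the same gene. Positions are from GENCODE M21, motifs and microRNAs from RefSeq GRCm38.p6. Python 3.11.15, numpy 2.4.6, pandas 2.3.3 and matplotlib 3.10.9 were used.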

Additional observations from a re-analysis of the deposited data

How the results depend on the processing

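Of 22 alternative counts of genes, 17 stayed within 1.5 times the counts above. Without a filter on low values 517 genes were lower, at 2-fold 120 were higher and 28 lower, and with the mean of PGM, HM and HF as the reference 116 were higher and 54 lower. The share of higher genes among those counted was 53.2%. It was 61.6% after quantile normalization and 68.2% with the mean of the 3 other groups as the reference, and lower genes outnumbered higher ones with a pseudocount of 0.1 (440 higher, 464 lower, 48.7%) and without a filter (508 higher, 517 lower, 49.6%). Of 610 list medians 600 were counted as unchanged, being within 1.5-fold and not counted as turned in sign. A turn was counted only where the list median above lay away from 0, so small medians among the 600 may have changed side. With HF as the reference smooth muscle was at -0.87, against 0.16 with Control, which is a change of side from a small median. The sex-linked list was at 0.85 with HF and at 0.60 with the mean of the 3 other groups. Counted as turned in sign were striatum (-0.07 with HF, -0.15 with the mean of 3), midbrain dopamine (-0.32 with HF) and erythroid (0.31 with the mean of 3). So were hindbrain genes, with 2 measured members (-0.48 at a mean of at least 3 RPKM, -0.42 with HF, -0.15 with the mean of 3). Among the single genes that had reached 1.5-fold, those that turned were Adora2a (-0.30 with HF, -0.42 with the mean of 3), Crym (-0.76 and -0.82 likewise), Slc6a3 (-0.16 with HF), Usp18 (-0.04 with HF), Ppp1r1b (-0.03 with the mean of 3), Ogn (0.03 with the mean of 3) and Lpl (0.12 with its highest transcript). The causes were not tested. No paired analysis was possible because the deposited values are group means without replicate columns, and leaving out a replicate in turn could not be run for the same reason. Depth is unknown, so genes of low RPKM have an unknown counting error.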

Other observations

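Genes of Wnt signalling, which patterns the thalamus, had 3 of 19 higher and 0 lower in PGF, beside 2.16% higher and 1.90% lower over all genes. Wnt9b, a ligand, was at 9.54 RPKM in PGF, 9.37 in PGM, 4.58 in HM, 3.56 in HF and 3.08 in Control, and Wnt3 was at 14.4 RPKM in PGF, 13.8 in PGM, 9.85 in HM, 7.88 in HF and 7.34 in Control. Lef1, the transcription factor at the end of the pathway, was at 14.5 RPKM in PGF and 8.61 RPKM in Control and is also a thalamic gene. PGF and PGM were the highest groups for all 3, while Axin2, a general target of the pathway, differed by -0.03.

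Over all genes 2.16% were higher and 1.90% were lower, so the following lists of 19 to 25 genes are too short to be set apart from those shares by their calls. Genes of antigen presentation and the interferon response had 2 of 20 higher and 0 lower, among them the class II gene H2-Ab1 at 28.98 RPKM in PGF and 17.3 RPKM in Control. Of 19 immediate early genes 1 was higher and 1 was lower. Dusp1, a phosphatase induced by stimulation, was at 29.2 RPKM in PGF and 16.6 RPKM in Control, while Fosb, a transcription factor gene, was at 1.67 RPKM in PGF and 2.86 RPKM in Control. Fos was at 31.7 RPKM in PGF and 42.4 RPKM in Control and did not reach 1.5-fold. The 25 cell cycle genes and the 22 heat shock and unfolded protein genes had 0 higher and 0 lower. The 42 genes of NADH dehydrogenase had 0 higher and 0 lower, although 40 of them were above 0, with a median difference of 0.13.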
